A study of Arabidopsis thaliana with 14 samples.

Results

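The UDP-glycosyltransferase (UGT) family of Arabidopsis thaliana is described here through 36 genes out of the 13350 genes that have a probe set annotated to them alone. A gene was taken when its symbol starts with UGT and a digit and its mean signal over all arrays reached 50, with UGT78D2, UGT79B1 and UGT84A1 left out by the rule. Of 47 probe sets with a UGT symbol and a single gene, 2 belonged to the genes left out (UGT78D2 and UGT84A1) and 9 had a mean under 50. The members just inside that threshold were UGT71B5 at 56.9 and UGT85A7 at 57.2, and the probe sets just outside it were UGT73C1 at 47.4 and UGT72E3 at 43.0. In 7 members at least 1 group mean was under 50 (UGT71B5, UGT73C7, UGT73D1, UGT74F1, UGT76E12, UGT85A5 and UGT85A7). Such a member can owe its place to the groups where it is high. Every member has 1 probe set, and the 36 genes fall into 11 groups by the number that follows UGT, which marks families of related sequence.

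Total RNA of seedlings was labelled and hybridised to 14 single-colour arrays, with 7 groups of 2 arrays. Seedlings of the wild type, Col, were measured at 7 days in 4 states: kept dark, kept dark with brassinolide (BL, the most active brassinosteroid hormone), and each of these followed by 2 h of light. The mutant det2, which the labels describe as deficient in brassinosteroids, was measured at 7 days after growth in the dark and at 7 days after growth in the light. A further det2 group was 14 days old, grown in light and then kept 8 h in the dark, and is called dark-shifted here. It is compared with the younger light-grown det2, so age and the dark shift cannot be told apart. Only Col received BL, and no Col group analysed here was grown in light throughout. The deposited sample numbers of the det2 arrays and of the Col arrays form separate runs, which do not show whether these sets were processed together. A difference between det2 and Col therefore cannot be told apart from a difference between sets of arrays. The titles call the hormone BL in the dark group and BR in the group given light, and its dose and duration and the light intensity are not given in the sources used here. No Col group was moved without light, so the effect of light and that of handling cannot be told apart. The labels do not state that the 2 arrays of a group came from separate cultures, so a p-value here reflects only how far these arrays differ, which may be technical variation. A lower signal from seedlings can come from fewer cells of a type or from less RNA per cell, and these cannot be told apart.

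UGT enzymes move a sugar, most often glucose, from a UDP-sugar to a small acceptor molecule. In plants the acceptors include hormones, phenylpropanoids, flavonoids, glucosinolate precursors and foreign compounds, and the sugar changes their solubility, activity and storage in the vacuole. UGT73C5 and UGT73C6, known for glucosylating brassinosteroids, are not analysed here.

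Signals are array intensity values scaled to a common level. The median signal per array ran from 187.6 to 218.8, and the lowest correlation between the 2 arrays of a group was 0.963 across probe sets. Changes were tested as log2(signal + 16) over 17788 probe sets, with adjusted p under 0.05 as the threshold for a call, and every fold change is on that scale, which understates changes of low genes. Levels of different probe sets are not compared with each other. Comparisons with a group in common use the same 2 arrays of it, so calls of a gene in them are not independent. Dark-grown Col is the reference for light without BL, for BL in the dark and for det2 in the dark. Dark-grown det2 is set against Col and against light-grown det2, and light-grown det2 also against the dark-shifted group. The 8 photosynthesis markers together summed to 20135 to 27496 signal units in dark-grown Col, 50845 to 53317 after light, 45928 to 48638 in dark-grown det2 and 95139 to 98499 in light-grown det2. In light-grown against dark-grown det2, 7 of them were called higher and LHCB4.3 was not called (log2 change -0.45, adjusted p = 0.0616). The tested markers of the dark-grown state, PORB and ICL, changed by -1.30 and -0.15 on the log2 scale with light in Col (adjusted p = 2.83e-05 and 0.694). In light-grown det2 they changed by -0.16 and -4.03 (adjusted p = 0.406 and 4.87e-08). The 2 root hair markers, EXPA7 and EXPA18, summed to 378 to 795 in dark-grown Col, 86.4 to 343 with BL, 142 to 193 in dark-grown det2 and 633 to 669 in light-grown det2, and neither was at 0 on any array. With BL in the dark neither was called (adjusted p = 0.321 and 0.176). In dark-grown det2 against Col, EXPA18 was called lower (adjusted p = 0.0208) and EXPA7 was not called (adjusted p = 0.0672). Both were called higher in light-grown than in dark-grown det2 (adjusted p = 0.0117 and 0.0349). The part of tissue make-up in the UGT results was not tested.

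UGT genes changed in larger numbers with 2 h of light in Col than in any of the other comparisons. In Col without BL, 2 h of light changed 18 of the 36 genes (50%), where 19.8% of all probe sets tested were called. Of these, 12 rose (10.1% of all probe sets rose) and 6 fell (9.76%). With BL, 20 genes changed (55.6%, against 17.3% of all), of which 13 rose (8.97% of all) and 7 fell (8.38%). The median log2 change of the members was 0.42 without BL and 0.36 with BL, beside -0.12 and -0.06 over all probe sets. In dark-grown det2 against dark-grown Col, 13 genes were called (36.1%, against 37.1% of all), 3 higher (19.2%) and 10 lower (17.9%). In light-grown against dark-grown det2 it was also 13 (36.1%, against 37.2%), 10 higher (19.5%) and 3 lower (17.7%), so the share called stood near the background in both. BL was followed by 3 calls in the dark (8.33%, against 3.42%), 1 higher (1.53%) and 2 lower (1.89%). After light it was also followed by 3 (8.33%, against 4.25%), 1 higher (2.17%) and 2 lower (2.08%). The dark shift of det2 was followed by 8 calls (22.2%, against 12.4%), 2 higher (5.98%) and 6 lower (6.4%). Without any 1 of its 4 arrays the dark shift kept 2 calls, UGT73B4 and UGT76B1. Light with BL kept 13 without replicate 2 of dark Col with BL or replicate 1 of the light group with BL. For BL after light the replicate numbers as a block gave 5 calls, adding UGT85A2 and UGT88A1, a fit to the Col arrays alone gave 0, and that fit with the block kept the 3. For light with BL the fit to the Col arrays alone kept 14 of the 20 calls, and with the block it kept the 20. Lost without the block were UGT72E2, UGT74B1, UGT76C2, UGT85A2, UGT85A5 and UGT87A2. For light without BL the fit to the Col arrays alone kept 17 of the 18 and lost UGT85A5. Whether light acted differently with BL was asked with an interaction term of limma, which called 0 members and 0 probe sets (0% of all). At an unadjusted p under 0.05 it gave 3 members (8.33%, against 3.72% of all), UGT71C2, UGT71C5 and UGT76C2.

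**Figure D1:**
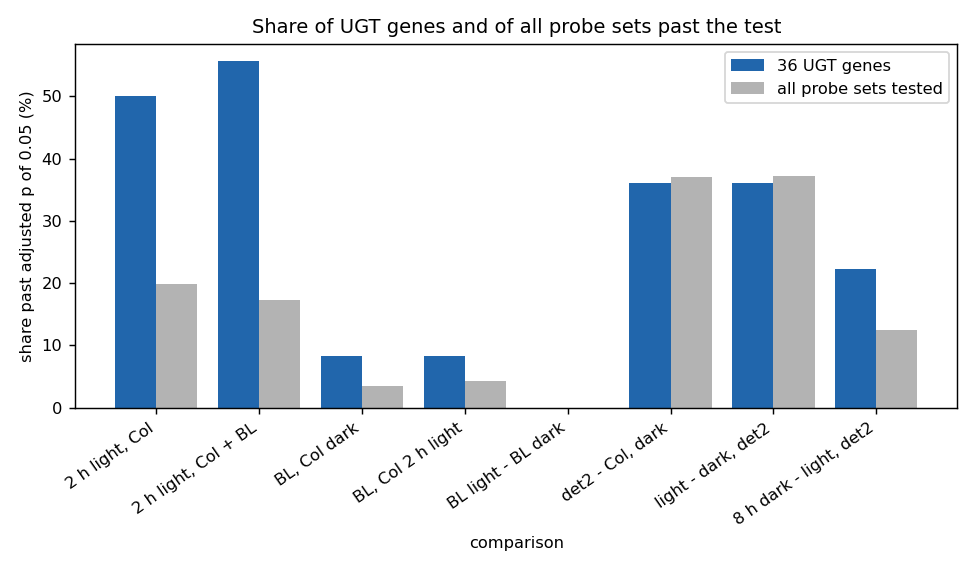
Share of the 36 UGT genes (blue) and of all 17788 probe sets tested (grey) past an adjusted p of 0.05 in each of 8 comparisons, in percent on a linear axis from 0. The UGT bars reach 50% and 55.6% for light in Col without and with BL, and 36.1% in both comparisons of dark-grown or light-grown det2.

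Over the 8 comparisons 28 of the 36 genes (77.8%, against 64.6% of all probe sets) were called at least once, and 8 never were (UGT71B5, UGT73D1, UGT76D1, UGT80B1, UGT84A4, UGT85A3, UGT85A4 and UGT85A7). The calls numbered 78, and in each of them the arrays of the groups compared did not overlap, which held for 23388 of the 23390 calls over all probe sets. UGT72E1 was called in 6 comparisons, 8 genes in 4, 8 in 3, 5 in 2 and 6 in 1. Array values are given for 20 members by the rule stated with the processing, and also for UGT71C3, UGT71C4, UGT72B3, UGT72E2, UGT73B1, UGT73B5, UGT74B1, UGT85A2 and UGT87A2, which were chosen after their values were seen.

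**Figure D2:**
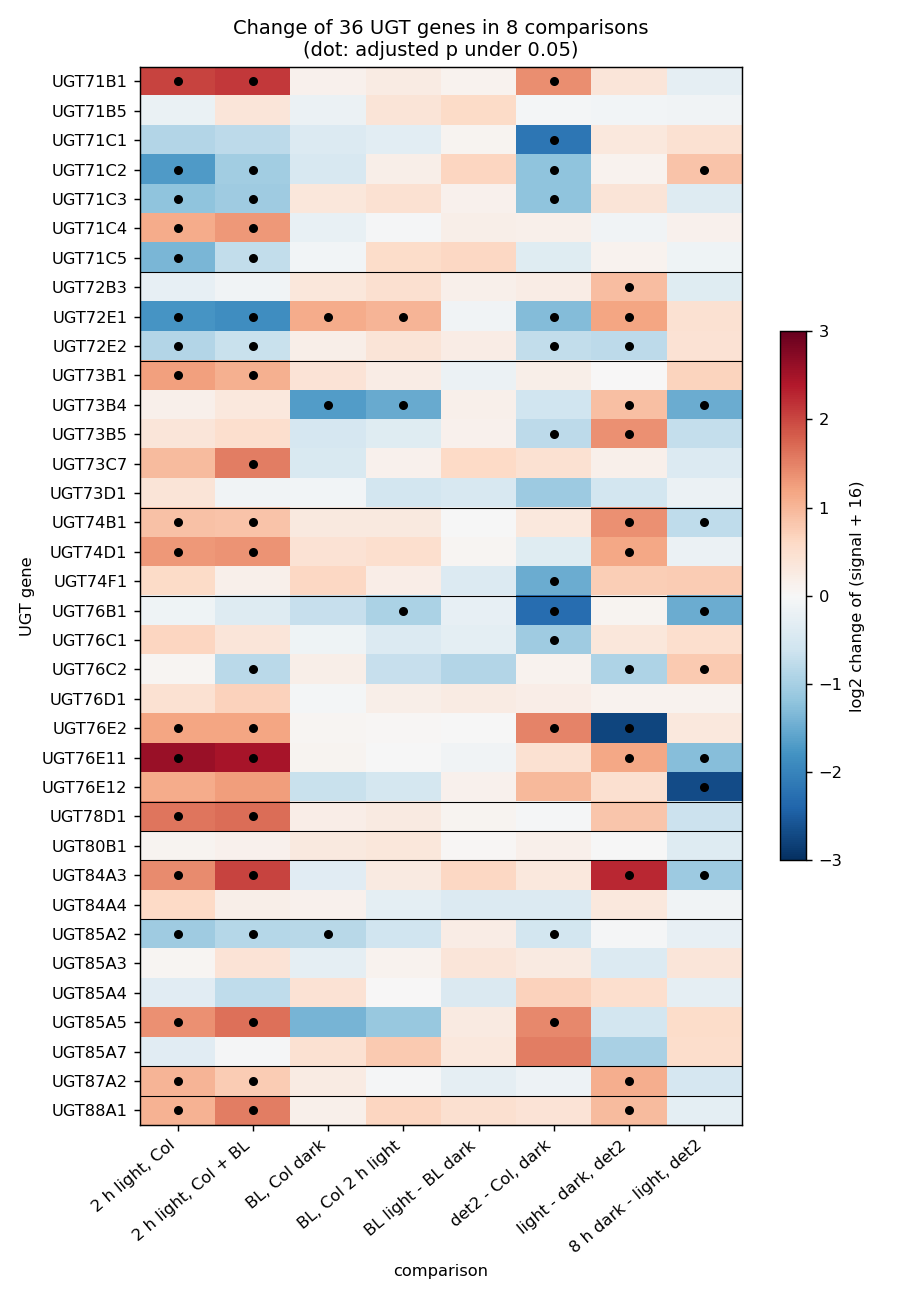
Log2 change of each of the 36 UGT genes (rows, ordered by number group, with lines between groups) in 8 comparisons (columns), red for higher and blue for lower, on a scale from -3 to 3. A dot marks a call at an adjusted p under 0.05; the light columns hold 18 and 20 dots and the interaction column none.

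Number group 71 holds 7 members, which split under light. In Col, 2 rose (UGT71B1 and UGT71C4) and 3 fell (UGT71C2, UGT71C3 and UGT71C5), and the same 5 moved in the same direction when BL was present. UGT71B1 gave 93.1 and 90.9 in dark-grown Col, 103 and 103 with BL, 307 and 584 after light and 474 and 533 after light with BL. In det2 it gave 273 and 266 in the dark, 374 and 328 in the light and 303 and 269 after the dark shift. All 4 light-treated Col arrays lay above all 4 dark Col arrays, and the det2 arrays lay above the dark Col arrays. The rise with light was 4.08-fold (log2 change 2.03 ± 0.24 SE, adjusted p = 6.52e-05) without BL and 4.37-fold (adjusted p = 5.12e-05) with it, and the level in dark-grown det2 was 2.64-fold (log2 change 1.40 ± 0.24 SE, adjusted p = 0.000786) above that of Col.

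UGT71C5, which glucosylates abscisic acid, gave 936 and 951 in dark-grown Col, 830.4 and 961 with BL, 399 and 316 after light and 533 and 519.8 after light with BL. The det2 arrays gave 766 and 698 in the dark, 730.1 and 841 in the light and 689.6 and 741 after the dark shift. The dark Col arrays lay above the light-treated ones in both hormone states, and 5 of the 6 det2 arrays lay between them. The fall with light was 2.58-fold (log2 change -1.37 ± 0.16 SE, adjusted p = 5.24e-05) without BL and 1.68-fold (adjusted p = 0.00571) with it. The call with BL was lost without replicate 2 of Col with BL in the dark (adjusted p = 0.0598).

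UGT71C1 and UGT71C2 were both lower in dark-grown det2 than in Col. UGT71C1 gave 694 and 648 in dark-grown Col, 568 and 447 with BL, 285 and 445 after light and 217 and 372 after light with BL, and 97.2 and 191 in dark-grown det2, 176 and 173 in light-grown det2 and 231 and 258 after the dark shift. The det2 arrays in the dark lay below all dark Col arrays, with a difference of 4.48-fold (log2 change -2.16 ± 0.31 SE, adjusted p = 0.000191). Its change with light in Col, -0.88 (adjusted p = 0.0605) on the log2 scale, was called with the replicate numbers as a block (adjusted p = 0.0342 over all arrays and 0.0367 over Col alone). UGT71C2 gave 391 and 499.7 in dark-grown Col, 299.9 and 324 with BL, 123 and 126 after light and 126 and 160.3 after light with BL, a fall with light of 3.26-fold (log2 change -1.70 ± 0.20 SE, adjusted p = 5.77e-05) without BL and 2.07-fold (adjusted p = 0.00272) with it. Its det2 signals were 158 and 209 in the dark, 205 and 189.7 in the light and 378 and 363 after the dark shift, which was 2.32-fold lower in the dark than Col (adjusted p = 0.000586) and 1.81-fold higher after the dark shift than in light-grown det2 (adjusted p = 0.0146). That last call was lost without any 1 of its 4 arrays (adjusted p up to 0.106). UGT71B5 was not called in any comparison and lay between 14.2 and 144 on the 14 arrays.

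Number group 72 holds UGT72B3, UGT72E1 and UGT72E2. UGT72E1 and UGT72E2 glucosylate monolignols and their aldehydes, the building blocks of lignin, and both fell with light in Col. UGT72E1 was the member with calls in the largest number of comparisons. It gave 1511 and 1462 in dark-grown Col, 3756 and 2767 with BL, 412 and 434 after light and 809 and 932 after light with BL. The mutant gave 597 and 591 in the dark, 1369 and 1357 in the light and 1903 and 1858 after the dark shift. Dark Col arrays with BL were the highest of the 14, dark Col without BL and the light-grown and dark-shifted det2 arrays came next, and light-treated Col without BL was the lowest.

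BL raised UGT72E1 2.16-fold (log2 change 1.11 ± 0.16 SE, adjusted p = 0.00204) in the dark and 2.02-fold (adjusted p = 0.0032) after light, and light lowered it 3.42-fold (log2 change -1.78 ± 0.16 SE, adjusted p = 4.62e-06) without BL and 3.66-fold (adjusted p = 3.11e-06) with BL. In the dark it was 2.46-fold lower in det2 than in Col (adjusted p = 5.69e-05). Light-grown det2 stood 2.26-fold above dark-grown det2 (adjusted p = 8.46e-05), the opposite direction to Col. UGT72E2 fell 1.84-fold (log2 change -0.88 ± 0.18 SE, adjusted p = 0.0044) with light in Col, from 1516 and 1545 to 849.8 and 804, and 1.72-fold (adjusted p = 0.00511) in det2 grown in light, from 988 and 838 to 545 and 503. It was 1.67-fold lower in dark-grown det2 than in Col (adjusted p = 0.00742), a call lost without replicate 2 of dark-grown det2 (adjusted p = 0.0674). With BL, its fall with light, 1.58-fold (adjusted p = 0.0253), was lost without any 1 of 3 of its arrays (adjusted p up to 0.22 without replicate 1 of the light group with BL). The fall in light-grown det2 was lost without replicate 1 of dark-grown det2 (adjusted p = 0.0524). UGT72B3 rose 1.91-fold (adjusted p = 0.00927) in light-grown det2, from 166 and 134 to 282 and 318, a call lost without replicate 2 of either group (adjusted p = 0.0666 and 0.0698).

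Number group 73 holds UGT73B1, UGT73B4, UGT73B5, UGT73C7 and UGT73D1. UGT73B4 and UGT73B5, neighbours on chromosome 2, are known for glucosylating foreign compounds and for induction in pathogen response. UGT73B4 fell with BL in both light conditions. It gave 405 and 309.5 in dark-grown Col, 82.3 and 122 with BL, 347 and 447 after light and 95.1 and 170.2 after light with BL. In det2 the signals were 273 and 195 in the dark, 442 and 447 in the light and 148 and 148 after the dark shift. The 4 BL-treated Col arrays and the dark-shifted det2 arrays were the low ones, between 82.3 and 170.2, and the other Col and det2 arrays were all higher.

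The fall of UGT73B4 with BL was 3.18-fold (log2 change -1.67 ± 0.27 SE, adjusted p = 0.00542) in the dark and 2.85-fold (adjusted p = 0.00796) after light, and the interaction had a log2 value of 0.16 with a 95% interval from -0.68 to 1.0. UGT73B4 was 2.81-fold lower in the older, dark-shifted det2 than in light-grown det2 (adjusted p = 0.0036). Light-grown det2 was 1.87-fold above dark-grown det2 (adjusted p = 0.0204). The call in the dark was lost without replicate 1 of the dark BL group (adjusted p = 0.0661), that after light without replicate 1 of the light group with BL (adjusted p = 0.0539), and that for light-grown det2 without replicate 2 of dark-grown det2 (adjusted p = 0.152) or either light-grown array (adjusted p = 0.0834 and 0.0899).

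UGT73B5 was 2.58-fold higher in light-grown than in dark-grown det2 (log2 change 1.37 ± 0.27 SE, adjusted p = 0.0015), at 348 and 352 against 152 and 104. It was lower in dark-grown det2 than in Col, 1.72-fold (adjusted p = 0.0353), a call lost without replicate 1 of dark-grown Col (adjusted p = 0.316) or replicate 2 of dark-grown det2 (adjusted p = 0.222). UGT73B1 rose with light in Col, from 354 and 231 to 712 and 685, by 2.36-fold (log2 change 1.24 ± 0.24 SE, adjusted p = 0.00285), and by 2.10-fold (adjusted p = 0.0083) with BL, the latter lost without replicate 2 of dark Col with BL or replicate 1 of the light group with BL (adjusted p = 0.0757 and 0.0786). UGT73C7, which glucosylates phenolic acids, gave 33.3 and 39.5 in dark-grown Col, 16.4 and 28.9 with BL, 90.4 and 80.1 after light and 115 and 78.2 after light with BL, and in det2 51.3 and 61.7 in the dark, 53.8 and 77.5 in the light and 22.1 and 80.1 after the dark shift. The light-treated Col arrays were above the dark Col arrays and overlapped those of det2. Its mean over all arrays was 59.15, with group means of 36.4 in dark-grown Col and 22.65 with BL. After light the means were 85.25 without BL and 96.5 with it. It passed the filter on mean signal in part through the light-treated groups, so the filter is not independent of its rise with light. Its rise with light was called with BL, 2.91-fold (adjusted p = 0.0201), and was lost without replicate 1 of either group of that comparison (adjusted p = 0.133 and 0.14). UGT73D1 was not called and lay between 9.2 and 242.

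The 3 members of number group 74 act on different acceptors. With 2 h of light in Col 2 of them rose, and the same 2 were higher in light-grown than in dark-grown det2. UGT74B1 forms a step of glucosinolate synthesis, UGT74D1 glucosylates auxin and oxidised auxin, and UGT74F1 glucosylates salicylic acid. UGT74D1 gave 782 and 708 in dark-grown Col, 1033 and 993 with BL, 1388 and 2449 after light and 2788 and 2444 after light with BL, and in det2 651 and 504 in the dark, 1332 and 1272 in the light and 1312 and 1004 after the dark shift. Its light-treated Col arrays lay above all dark Col arrays, and the light-grown and dark-shifted det2 arrays lay above the dark-grown ones. It rose 2.45-fold (log2 change 1.29 ± 0.23 SE, adjusted p = 0.0015) with light in Col, 2.55-fold (adjusted p = 0.00126) with light and BL, and 2.24-fold (adjusted p = 0.0017) in light-grown det2.

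UGT74B1 gave 515 and 384 in dark-grown Col, 699 and 974 after light and 893 and 1152 after light with BL, and in det2 626 and 504 in the dark, 1460.1 and 1483 in the light and 884 and 846 after the dark shift. In Col it was higher with light by 1.83-fold without BL (adjusted p = 0.00821) and by 1.82-fold with BL (adjusted p = 0.00941). Light-grown det2 was 2.57-fold above dark-grown det2 (adjusted p = 0.000196). The older, dark-shifted det2 was 1.69-fold below light-grown det2 (adjusted p = 0.0277). The rise in Col was lost without replicate 2 of either group (adjusted p = 0.0726 and 0.0737), and that with BL without replicate 1 of dark Col with BL or replicate 2 of the light group with BL (adjusted p = 0.0526 and 0.0772). The fall after the dark shift was lost without any 1 of its 4 arrays (adjusted p up to 0.155). UGT74F1 gave 74.9 and 52.6 in dark-grown Col, 99.1 and 112 with BL, 116 and 89.2 after light and 112 and 128 after light with BL, and in det2 10.1 and 14.1 in the dark, 35 and 27.3 in the light and 65.5 and 61.6 after the dark shift. The dark-grown det2 arrays were the lowest of the 14, at least 2.82-fold below dark-grown Col (adjusted p = 0.0015), with the group mean under the added constant of 16.

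Number group 76 holds 7 members and several hormone-related enzymes. UGT76B1 glucosylates isoleucic acid and salicylic acid, UGT76C1 and UGT76C2 glucosylate cytokinins at nitrogen, UGT76D1 glucosylates dihydroxybenzoic acids, and UGT76E2 belongs to a branch that includes a jasmonate glucosyltransferase. UGT76E11, which glucosylates flavonols, and UGT76E2 rose with light in Col, while UGT76B1 was lower in det2. UGT76E11 gave 54.1 and 81.7 in dark-grown Col, 76.2 and 67.1 with BL, 298 and 767 after light and 398 and 561 after light with BL, and in det2 89.6 and 108 in the dark, 253 and 229 in the light and 111 and 71.5 after the dark shift. The 4 light-treated Col arrays lay above every other array, and the light-grown det2 arrays came next. It rose 5.99-fold (log2 change 2.58 ± 0.36 SE, adjusted p = 0.000235) with light and 5.59-fold (adjusted p = 0.000369) with light and BL, between 3.79-fold and 9.46-fold when 1 array was left out of the first comparison.

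UGT76E2 gave 234 and 165 in dark-grown Col, 168 and 252 with BL, 449.8 and 492 after light and 471 and 501 after light with BL. The det2 values were 558 and 612 in the dark, 66 and 81.8 in the light and 97.8 and 95 after the dark shift. Dark-grown det2 was the highest group and light-grown det2 the lowest, and the light-treated Col arrays were all above the dark Col ones. It rose 2.29-fold (log2 change 1.19 ± 0.22 SE, adjusted p = 0.00198) with light in Col and 2.26-fold (adjusted p = 0.00247) with light and BL, was 2.82-fold (adjusted p = 0.000272) higher in dark-grown det2 than in Col, and was 6.70-fold (log2 change -2.75 ± 0.22 SE, adjusted p = 1.68e-06) lower in light-grown than in dark-grown det2. BL left no call on it, with a log2 change of 0.06 in the dark (95% interval -0.42 to 0.54).

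UGT76B1 gave 1757 and 2292 in dark-grown Col, 1018 and 1493 with BL, 1699.5 and 1995 after light and 1018 and 880.3 after light with BL. In det2 it gave 369.8 and 423 in the dark, 454 and 394 in the light and 130.3 and 150.3 after the dark shift. All 6 det2 arrays lay below all 8 Col arrays, and the dark-shifted ones were the lowest. In the dark det2 was 4.91-fold (log2 change -2.30 ± 0.21 SE, adjusted p = 6.16e-06) below Col, the dark-shifted arrays were 2.81-fold (adjusted p = 0.000558) below light-grown det2, and BL lowered it 1.93-fold (adjusted p = 0.0201) after light. The last call was lost without replicate 1 or 2 of light-treated Col or replicate 2 of the light group with BL (adjusted p = 0.0537, 0.0789 and 0.142). In the dark the change with BL was -0.70 (adjusted p = 0.0963) on the log2 scale.

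UGT76C1 gave 310.1 and 278 in dark-grown Col, 282 and 256 with BL, 458 and 482 after light and 366 and 335 after light with BL, and in det2 81 and 212 in the dark, 178 and 169 in the light and 263 and 243 after the dark shift. Dark-grown det2 was 2.08-fold (adjusted p = 0.0137) below Col, with an adjusted p of 0.0626 without replicate 1 of dark-grown Col and 0.128 without replicate 1 of dark-grown det2. The fold moved between 1.36 and 3.20 as single arrays were left out. Its change with light in Col, 0.65 (adjusted p = 0.15) on the log2 scale, was called in the fit to Col alone with the block (adjusted p = 0.0237). UGT76C2 gave 781 and 561 in dark-grown Col, 780.1 and 726 with BL, 565 and 848 after light and 405 and 444 after light with BL, and in det2 731 and 698 in the dark, 429 and 321 in the light and 778 and 551 after the dark shift. It fell 1.75-fold (adjusted p = 0.0328) with light in the presence of BL, fell 1.89-fold (adjusted p = 0.00866) in light-grown det2 and rose 1.73-fold (adjusted p = 0.0452) after the dark shift. The first of these calls and the last were lost without any 1 of the 4 arrays of their comparison (adjusted p up to 0.141 and 0.342), and that in light-grown det2 without replicate 1 of dark-grown det2 or replicate 2 of light-grown det2 (adjusted p = 0.0506 and 0.0961).

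UGT76D1 gave 63.3 and 93.6 in dark-grown Col, 71.4 and 76 with BL, 121 and 103 after light and 117 and 142 after light with BL, and in det2 97.7 and 85.1 in the dark, 102 and 96.1 in the light and 87.6 and 130.2 after the dark shift. It was not called. UGT76E12 gave 18.7 and 58.9 in dark-grown Col, 2.40 and 39.6 with BL, 41.5 and 197 after light and 59.6 and 61 after light with BL, and in det2 105 and 67.2 in the dark, 145 and 104 in the light and 5.50 and 6.10 after the dark shift. Its dark-shifted arrays fell at least 6.38-fold below light-grown det2 (adjusted p = 0.0134), and this call too was lost without any 1 of the 4 arrays (adjusted p up to 0.111). UGT76E11 rose 2.24-fold (adjusted p = 0.0231) in light-grown det2 and fell 2.43-fold (adjusted p = 0.0364) after the dark shift, and neither call held when 1 of its arrays was left out (adjusted p up to 0.111 and 0.248).

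**Figure D3:**
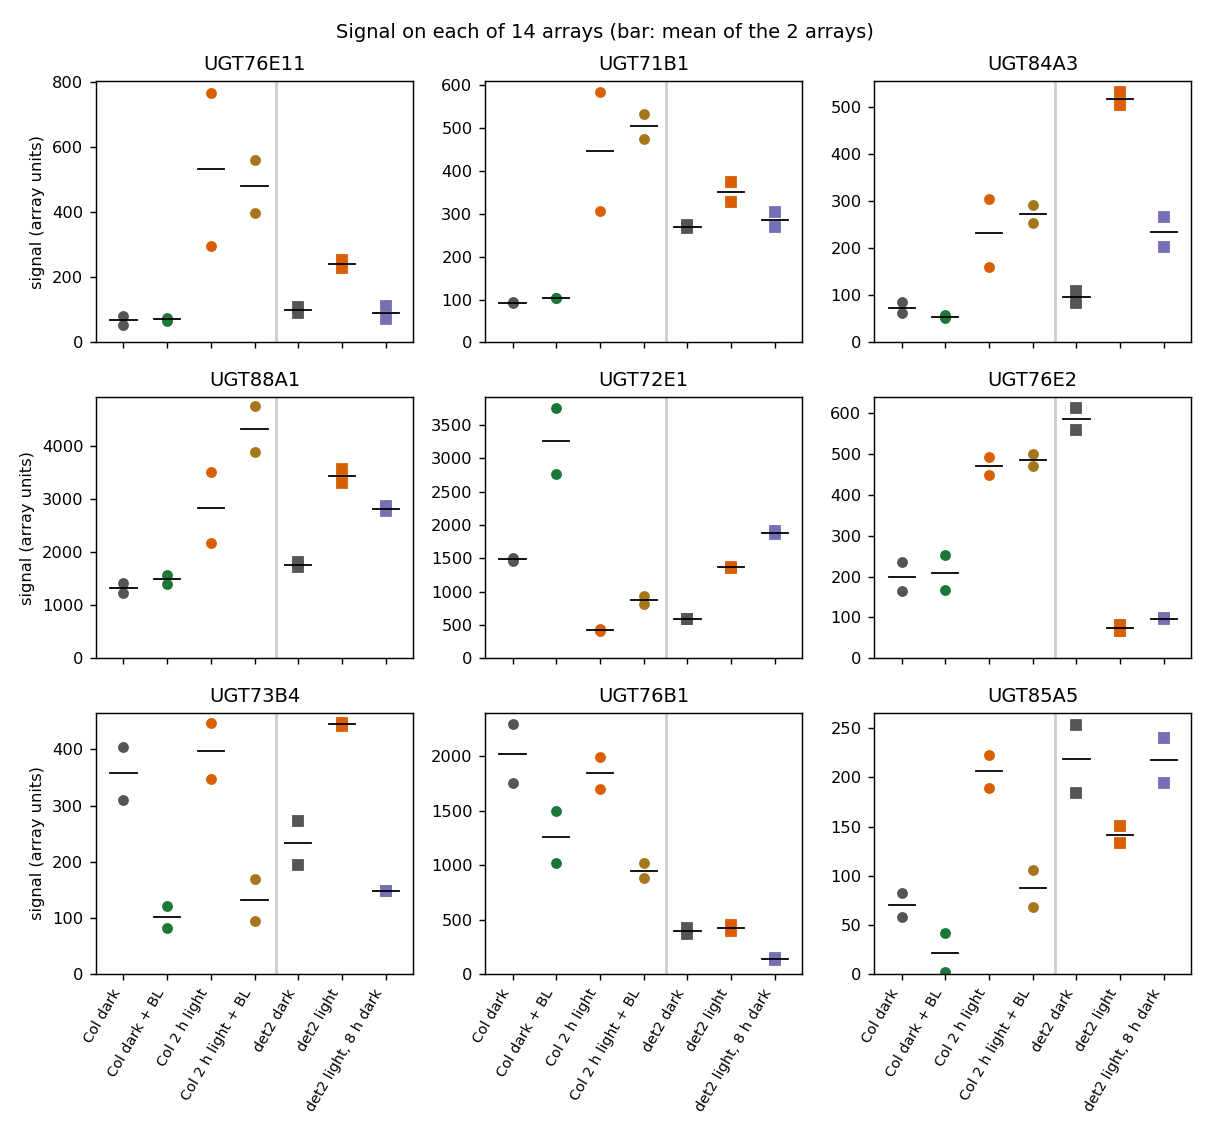
Signal in array units on linear axes from 0 for 9 UGT genes, with a point for each array and a bar for the mean of the 2 arrays, Col circles to the left of the grey line and det2 squares to its right. UGT76E11 lies between 298 and 767 in light-treated Col and between 54.1 and 81.7 in dark Col. UGT72E1 and UGT76E2 change in opposite directions with 2 h of light in Col and with growth in light in det2.

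Number groups 78, 80 and 84 include enzymes of flavonoids, sterols and hydroxycinnamic acids. UGT78D1, the flavonol 3-O-rhamnosyltransferase, gave 146 and 142 in dark-grown Col, 190.2 and 148 with BL, 347 and 639 after light and 423 and 784 after light with BL, and in det2 162 and 120.2 in the dark, 276 and 243 in the light and 159 and 159 after the dark shift. Light-treated Col arrays were the highest, and it rose 3.05-fold (log2 change 1.61 ± 0.31 SE, adjusted p = 0.00226) without BL and 3.22-fold (adjusted p = 0.00188) with it. UGT80B1, a sterol glucosyltransferase, was not called in any comparison and kept between 229 and 409 on the 14 arrays.

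UGT84A3 and UGT84A4, neighbours on chromosome 4, form glucose esters of hydroxycinnamic acids such as sinapate. UGT84A3 gave 61.9 and 86.5 in dark-grown Col, 58.4 and 51.8 with BL, 159.8 and 306 after light and 292 and 254 after light with BL. The det2 arrays gave 84.3 and 109 in the dark, 504 and 532 in the light and 267 and 204 after the dark shift. Its light-grown det2 arrays were the highest of the 14, and the light-treated Col and dark-shifted det2 arrays lay above the dark ones of both genotypes. It rose 2.66-fold (log2 change 1.41 ± 0.28 SE, adjusted p = 0.00295) with light, 4.06-fold (adjusted p = 0.000238) with light and BL, and 4.77-fold (log2 change 2.25 ± 0.28 SE, adjusted p = 5.04e-05) in light-grown det2, and fell 2.14-fold (adjusted p = 0.0222) after the dark shift, a call lost without any 1 of its 4 arrays (adjusted p up to 0.176). UGT84A4 was not called, with arrays between 124 and 297.

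Number group 85 holds 5 members, of which 2 were called, in opposite directions in 3 comparisons. UGT85A5, known from salt stress work, gave 82 and 58.3 in dark-grown Col, 41.5 and 2.40 with BL, 223 and 189 after light and 106 and 68.6 after light with BL. Its det2 signals were 253 and 184 in the dark, 150.5 and 133 in the light and 240.4 and 194 after the dark shift. In each hormone state the light-treated Col arrays lay above the dark ones, though those with BL overlapped dark Col without BL, and dark-grown det2 lay above all dark Col arrays. It rose 2.60-fold (adjusted p = 0.0348) with light without BL and 3.12-fold (adjusted p = 0.0158) with BL, and was 2.72-fold higher in dark-grown det2 than in Col (adjusted p = 0.0169). The call without BL was lost without any 1 of its arrays (adjusted p up to 0.166), that with BL without replicate 2 of dark Col with BL or replicate 1 of the light group with BL (adjusted p = 0.144 and 0.117), and that for det2 without replicate 2 of dark-grown Col or replicate 1 of dark-grown det2 (adjusted p = 0.0986 and 0.101). With BL the fold moved between 1.77 and 5.52, and with a constant of 1 in place of 16 the calls for light without BL and for det2 were not made (adjusted p = 0.206 and 0.129).

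UGT85A2 gave 1429 and 1627 in dark-grown Col, 863 and 848 with BL, 586 and 893 after light and 418 and 528 after light with BL, and in det2 973 and 1085 in the dark, 956 and 1046 in the light and 810.3 and 876 after the dark shift. It fell 2.08-fold (adjusted p = 0.00172) with light without BL, 1.80-fold (adjusted p = 0.00847) with light and BL, and 1.77-fold (adjusted p = 0.0357) with BL in the dark. It was 1.48-fold lower in dark-grown det2 than in Col (adjusted p = 0.0372). The changes with light without BL, with BL in the dark and in det2 were all taken against the same 2 dark-grown Col arrays. Both the BL call and the det2 call were lost without any 1 of their 4 arrays (adjusted p up to 0.194 and 0.167), and the fall with light and BL without replicate 1 of that light group (adjusted p = 0.0796). UGT85A3, UGT85A4 and UGT85A7 were not called in any comparison.

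UGT87A2 and UGT88A1 are the only members of their number groups, and both rose with 2 h of light in Col. Both were also higher in light-grown than in dark-grown det2. UGT87A2, known for a role in flowering time, gave 624 and 722 in dark-grown Col, 1552 and 1209.9 after light and 1522 and 1190.3 after light with BL, and in det2 554 and 653 in the dark, 1284 and 1310.3 in the light and 841 and 973 after the dark shift. It rose 2.02-fold (log2 change 1.01 ± 0.18 SE, adjusted p = 0.00157) with light, 1.68-fold (adjusted p = 0.0119) with light and BL, and 2.13-fold (adjusted p = 0.000505) in light-grown det2, and the call with BL was lost without replicate 2 of dark Col with BL or replicate 1 of the light group with BL (adjusted p = 0.1 and 0.107). UGT88A1 gave 1237 and 1421 in dark-grown Col, 1407 and 1568 with BL, 2176 and 3506 after light and 3900.3 and 4756 after light with BL. The mutant gave 1724 and 1810 in the dark, 3302 and 3576 in the light and 2865 and 2773 after the dark shift. All light-treated Col arrays lay above all dark Col arrays, and light-grown det2 lay above dark-grown det2. It rose 2.07-fold (log2 change 1.05 ± 0.19 SE, adjusted p = 0.00177) without BL, 2.88-fold (adjusted p = 0.000116) with BL and 1.94-fold (adjusted p = 0.00188) in light-grown det2.

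All 18 genes called with light in Col were called in the same direction in Col with BL, a share of 100% of the first list and 90% of the second. Over all probe sets the 2289 shared calls made up 64.9% and 74.2% of the lists. The groups in these comparisons have no array in common. Both tests of a gene, however, use the same estimate of its spread from all arrays, so its calls are not independent. UGT73C7 and UGT76C2 were called with light in the presence of BL and not without it, and the interaction did not reach an adjusted p of 0.05 for either. In the fit to Col alone with the block, UGT73C7 was called without BL too (adjusted p = 0.044). The groups compared for BL in the dark and for BL after light also share no array, but the tests share the estimate of spread. UGT72E1 and UGT73B4 were called in both and in the same direction, 66.7% of each list of 3. Over all probe sets the shares were 55.8% and 44.8%.

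Light acted on Col for 2 h and on det2 through growth, so the groups differ in light regime as well as genotype. Of the 18 genes called in Col and the 13 called in det2, 9 were shared, 50% of the first list and 69.2% of the second, 7 in the same direction and 2 in the opposite, UGT72E1 and UGT76E2. Over all probe sets 1903 were shared (54% and 28.8%), 1449 in the same direction and 454 in the opposite, so the split of the members by direction was near that of all probe sets. The difference between the 2 light changes was tested as a contrast added after the data had been seen, and it passed for 12 members (33.3%, against 24% of all probe sets). The difference, det2 minus Col on the log2 scale, was 2.95 ± 0.22 (SE, adjusted p = 2.61e-06) for UGT72E1 and -3.94 ± 0.31 (SE, adjusted p = 4.14e-06) for UGT76E2. UGT71B1 had -1.67 ± 0.34 (SE, adjusted p = 0.00398) and UGT71C4 -1.22 ± 0.21 (SE, adjusted p = 0.00138), since both rose in Col and had changes of 0.36 and -0.10 in det2. UGT71C2, UGT71C3 and UGT71C5 fell in Col and had changes of 0.11, 0.40 and 0.10 in det2, with differences of 1.81 ± 0.29 (SE, adjusted p = 0.000656), 1.60 ± 0.36 (SE, adjusted p = 0.007) and 1.47 ± 0.23 (SE, adjusted p = 0.000594). The calls on these 7 genes held without any 1 of the 8 arrays. Those of UGT72B3, UGT73B1, UGT76C2, UGT85A2 and UGT85A5 did not, with adjusted p up to 0.0879, 0.0901, 0.187, 0.0681 and 0.0982.

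**Figure D4:**
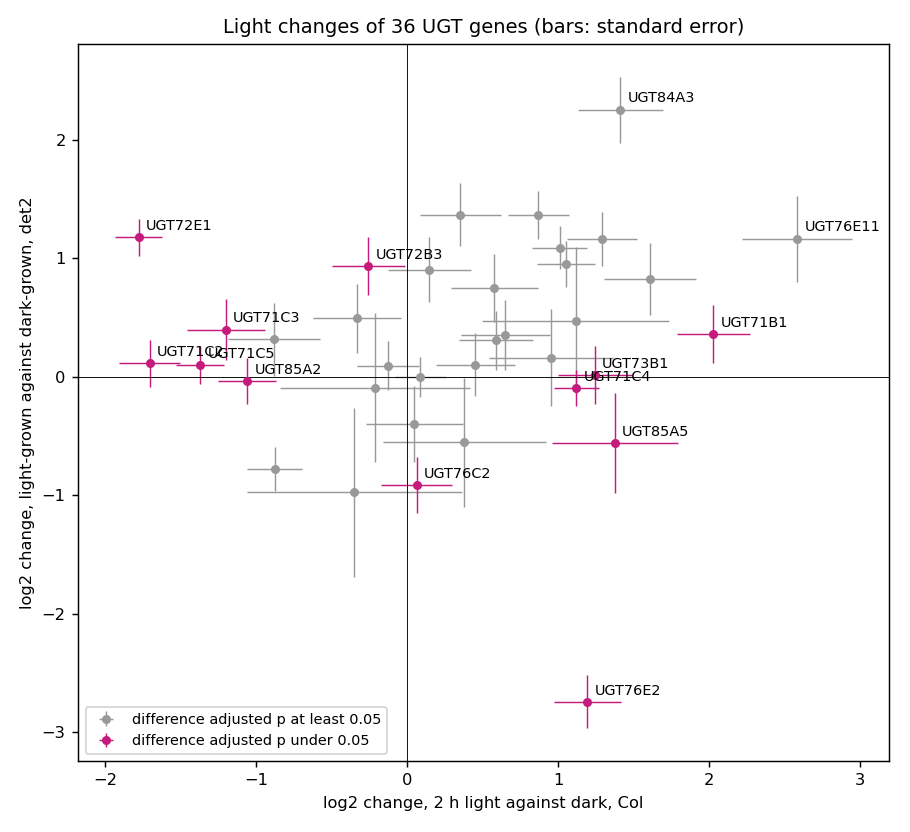
Log2 change of 36 UGT genes with 2 h of light in Col (horizontal) and in light-grown against dark-grown det2 (vertical), with standard errors, and in magenta the 12 genes whose difference passed an adjusted p of 0.05. UGT72E1 lies to the upper left (-1.78 and 1.18) and UGT76E2 to the lower right (1.19 and -2.75).

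Some UGT genes are neighbours in the genome, by the gene order of RefSeq TAIR10.1. There are 11 pairs with 19 members, 10 of them with no protein-coding gene between. UGT71C3, UGT71C4 and UGT71C5 lie in a row on chromosome 1, and with light in Col UGT71C4, between the other two, rose while UGT71C3 and UGT71C5 fell. UGT71C4 gave 696 and 652 in dark-grown Col, 610.5 and 543 with BL, 1466 and 1502 after light and 1268 and 1627 after light with BL, and in det2 749 and 746 in the dark, 699.5 and 695 in the light and 759 and 779.6 after the dark shift. It rose 2.17-fold (log2 change 1.12 ± 0.15 SE, adjusted p = 0.000161) without BL and 2.45-fold (adjusted p = 5.89e-05) with it, while UGT71C5 fell in both.

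UGT71C3 gave 264 and 266 in dark-grown Col, 298 and 380.1 with BL, 96 and 118 after light and 168 and 139 after light with BL, and in det2 77.6 and 144 in the dark, 154 and 138 in the light and 103 and 112 after the dark shift. It fell 2.30-fold (log2 change -1.20 ± 0.26 SE, adjusted p = 0.00499) with light, 2.09-fold (adjusted p = 0.0114) with light and BL, and was 2.29-fold (adjusted p = 0.00312) lower in dark-grown det2 than in Col. The call with light and BL was lost without replicate 2 of either of its groups (adjusted p = 0.1 and 0.0726). Over the 7 group means the log2 signals of UGT71C5 and UGT71C4 had a correlation of -0.93 and those of UGT71C4 and UGT71C3 one of -0.52, as a description with 14 arrays shared between the genes. UGT85A2 and UGT85A5, also next to each other on chromosome 1, were called in opposite directions in 3 comparisons, with light in both hormone states and in dark-grown det2 against Col, with a correlation of -0.04 over the group means. Of these comparisons, light without BL and det2 against Col share the dark-grown Col arrays. Among the other 8 pairs 3 had calls in the same direction in 1 comparison each (UGT73B5 and UGT73B4, UGT71C2 and UGT71C1, UGT76E12 and UGT76E11), and none had calls in opposite directions. Those 3 had correlations over the group means of 0.649, 0.463 and 0.635. Across the 8 pairs the correlations ran from -0.007 (UGT73D1 and UGT73C7) to 0.748 (UGT85A5 and UGT85A3).

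**Figure D5:**
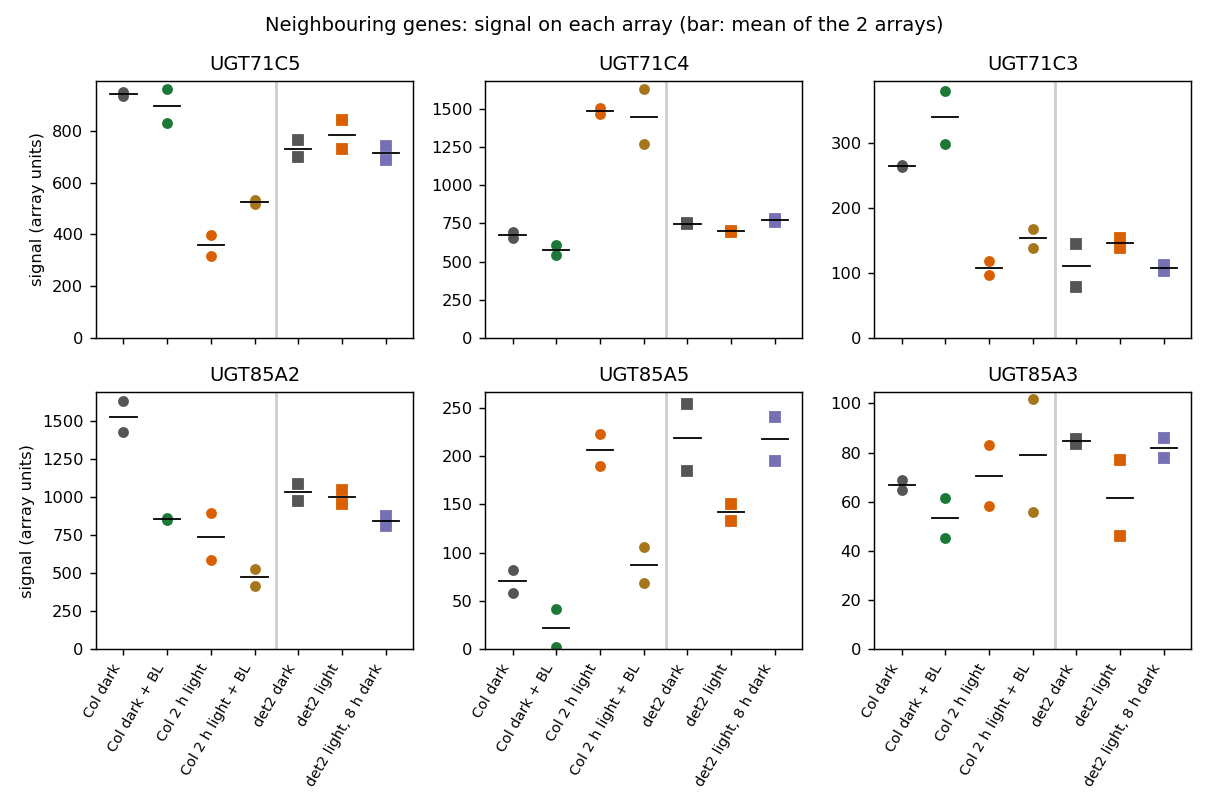
Signal in array units on linear axes from 0 for the chromosome 1 neighbours UGT71C5, UGT71C4 and UGT71C3 (top row) and UGT85A2, UGT85A5 and UGT85A3 (bottom row), with a point for each array and a bar for the mean of the 2 arrays. After light in Col, UGT71C4 lies between 1268 and 1627, above its dark Col arrays, while UGT71C5 and UGT71C3 lie below theirs.

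Dark-grown det2, dark-grown Col and dark-grown Col with BL were set in a series by expected brassinosteroid supply, which was not measured. The step from det2 to Col is a change of genotype, and the step to Col with BL adds hormone at a dose not given. In 5 members (13.9%, against 7.13% of all probe sets) the arrays were ordered upward through the series without overlap (UGT71C3, UGT72E1, UGT72E2, UGT74D1 and UGT74F1), and in 4 (11.1%, against 4.92%) they were ordered downward (UGT71C4, UGT73C7, UGT85A3 and UGT85A5). Of these 9, UGT72E1 was called in both steps, and UGT71C4, UGT73C7, UGT74D1 and UGT85A3 were called in neither. UGT71C3, UGT72E2, UGT74F1 and UGT85A5 were called in the step from det2 to Col only. With the replicate numbers as a block UGT85A5 was also called in both, since its change with BL in the dark, -1.39 on the log2 scale, had an adjusted p of 0.0292 in the fit to all arrays and 0.0467 in that to Col alone, against 0.103 without the block.

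The list of hormone-related UGT genes had 9 of 21 genes tested, 8 of them members. With light in Col 2 rose and 1 fell, where 10.1% of all probe sets rose and 9.76% fell. In dark-grown det2 1 was higher and 3 were lower than in Col, where 19.2% of all were higher and 17.9% lower. The phenylpropanoid list had 5 genes tested, of which 1 rose and 2 fell with light in Col, and 3 were lower in dark-grown det2 than in Col (17.9% of all). The largest of these differences was that of AT4G01070 (GT72B1), no member because its annotated symbol does not start with UGT, with a log2 change of -2.02 (adjusted p = 6.17e-06). Both genes tested of the flavonoid list, UGT78D1 and AT1G06000, rose with light in Col (10.1% of all), AT1G06000 by a log2 change of 2.54 (adjusted p = 3.13e-06). The other gene of the glucosinolate list, AT2G31790, rose with UGT74B1 in light-grown det2, by a log2 change of 3.25 (adjusted p = 7.86e-07). Glutathione transferases, another family acting on foreign compounds, had 11 genes tested. Of these 7 were lower and 2 higher in dark-grown det2 than in Col (17.9% and 19.2% of all). In light-grown against dark-grown det2, 7 were higher and 0 lower (19.5% and 17.7% of all), with GSTU20 at a log2 change of 3.17 (adjusted p = 1.16e-06). Both comparisons use the same 2 dark-grown det2 arrays, so their calls are not independent. For the supply of UDP-sugars, 1 of 24 listed genes was tested, USP. It was lower in dark-grown det2 (log2 change -0.68, adjusted p = 0.00202) and higher in light-grown det2 (0.77, adjusted p = 0.000713). These differences, too, use the same 2 dark-grown det2 arrays.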

How the data were processed

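Array intensity values of 14 arrays were used as deposited by the authors in 1 table over the whole series. The submitters' processing notes name MAS5 and limma without a version. With 2% trimmed from both tails, each array had a mean of 500, which shows that the deposited intensity values were already scaled, and they were not scaled again. The number of arrays limits the precision. Groups came from the titles and descriptions.

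After setting aside 64 control probe sets, the mean signal had to reach 50, which left 17788 of 22810 probe sets and removed 4958. The test used log2(signal + 16) and 1 mean per group over all 14 arrays in limma 3.58.1 (R 4.3.3), with a variance trend and Benjamini-Hochberg adjustment within each of 8 comparisons and a threshold of 0.05. Figures were drawn with matplotlib 3.10.9. No probe set of DET2 is named, so the mutated gene checks no label.

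Names came from the platform annotation, and all 36 members matched RefSeq (TAIR10.1), which was used for names and gene order only. Another 3 UGT probe sets match several genes and were not used as members. The members and lists were chosen with earlier results of these data known. Every member is named. Array values are given for the 16 members with the largest called log2 change and for the 8 measured members of the hormone list, 20 genes in all. Another 9 members have array values by a choice made after their values were seen, as named in the text, and of other lists at most 2 genes are named per comparison. The lists of brassinosteroid synthesis genes and of vacuolar conjugate transporters had 0 of 10 and 0 of 8 genes with a named probe set.

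Pairing by replicate number was checked on the deviations of arrays from their group mean, correlated across probe sets. Between Col groups the 6 correlations ran from 0.23 to 0.43, between det2 groups the 3 ran from -0.03 to 0.02, and between genotypes the 12 ran from -0.05 to 0.04. Pairing was therefore treated as possible in Col, although a group has only 2 numbers, and not in det2. The main fit had no replicate block, so its adjusted p-values for Col do not take pairing into account. The block in all arrays applied pairing to det2 as well. Alternatives covered the added constant (1 and 64), the filter, quantile normalization, the variance trend, the arrays fitted, the replicate block and single arrays left out.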

Additional observations from a re-analysis of the deposited data

Results flagged for a closer look

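The change with light went in opposite directions in the 2 genotypes for 2 members, and the difference between the genotypes passed the test. For UGT72E1 the log2 change of light-grown against dark-grown det2 minus that of 2 h of light in Col was 2.95, and for UGT76E2 it was -3.94. Light regime and genotype differed together between these groups and cannot be told apart.

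UGT73C1 was not a member, since its mean signal over the 14 arrays was 47.4, and it had a mean of 94.8 in light-treated Col and 174.4 in light-treated Col with BL. Its dark-grown Col arrays read 5.9 and 3.0. The difference was not tested.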

How the results depend on the processing

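Of 78 called changes, 45 held in every alternative and 33 were lost in at least 1, and 0 of 1063 refits reversed a direction. Among the alternatives only quantile normalization could have reversed one. The others keep the differences of group means or the order of the arrays, and the arrays of every called change did not overlap. Of the 1063, 78 used the lowest-mean probe set of a gene and repeat the main fit, since every member has 1 probe set. Single arrays left out accounted for 83 of the 106 losses and the fit to 1 genotype alone for 11. The number of UGT genes called with BL after light was 3, and it was 0 in the fit to the Col arrays alone and 5 with the replicate block in all arrays, where UGT85A2 and UGT88A1 were added, and 3 in the fit to Col alone with the replicate block. The replicate block in all arrays ended none of the 78 calls and added UGT85A5 with BL in the dark, UGT71C1 with light in Col and UGT78D1 in light-grown det2. For the dark shift of det2 the number was 8, and it was 14 in the fit to the det2 arrays alone and 14 in that fit with the replicate block. Leaving out single arrays gave 2 calls for the dark shift whichever array was left out (UGT73B4 and UGT76B1), 2 to 3 for BL in the dark, 2 to 4 for BL after light, 16 to 18 for light in Col, 13 to 18 for light in Col with BL, 10 to 11 for det2 in the dark, 10 to 12 for light-grown det2, 0 for the interaction and 8 to 12 for the added contrast between the light changes. The 13 calls for light with BL came without replicate 2 of dark Col with BL or without replicate 1 of the light group with BL. The fold moved by over 1.5 times without 1 array for UGT76C1 in dark-grown det2, UGT76E11 with light in Col and UGT85A5 with light and BL. With 2 arrays per group, single arrays decide a call near the threshold, and signals near the added constant of 16 are the least certain.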

Other observations

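Probe sets that match a UGT gene and another gene cannot be assigned to either. The one shared by UGT73B2 and UGT73B3 read 2350 and 2933 in dark-grown Col and 534 and 696 in dark-grown det2. The one shared by UGT71D1 and AT2G29710 read 285 and 357 in dark-grown Col, 111 and 204 after light, and 672 and 711 in dark-grown det2.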
